A study of Arabidopsis thaliana with 12 samples.

Results

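The experiment described here compared Arabidopsis root protoplasts that received dexamethasone (DEX) with protoplasts that did not, all of them with translation running. It took 6 of the 12 arrays of the series, 3 titled as DEX without cycloheximide (CHX) and 3 titled as neither drug, and every one of the 22746 probe sets that is not a hybridisation control. The plants were ecotype Columbia, and the protoplasts were prepared from roots and transformed. The sample descriptions name an ABI3-GR fusion for the arrays with and without drug, so the fusion is shared by both groups. DEX was given at 10 µM, and per the labels it moves the transcription factor into the nucleus. The other 6 arrays received CHX at 35 µM, which blocks translation, either alone or with DEX, and are used below only to set values beside those without CHX. The labels do not say which promoter drives the fusion, whether transformed cells were sorted from the rest, or whether the replicates came from different protoplast preparations. The p-values below are therefore measures of array-to-array spread, which may be technical. Protoplasts with DEX but without the fusion were not analysed here, so responses to the drug itself and to the fusion cannot be told apart.

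ABI3 is a B3-domain transcription factor of seed maturation. It is best known for switching on genes for storage proteins, oil-body proteins and late embryogenesis abundant (LEA) proteins, together with bZIP partners and the hormone abscisic acid. A protein fused to the hormone-binding part of the glucocorticoid receptor stays in the cytoplasm until DEX is added. With translation running, a transcript can respond to the factor itself or to proteins made from its first targets. With CHX present, the second route is blocked.

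Of the 22746 probe sets, 3 rose with DEX (0.0132% of those tested) and 0 fell (0.0% of those tested), by limma at an adjusted p under 0.05. The gene AT2G47950 rose 9.28-fold, and the probe sets 257654_at and 245173_at, for which the platform annotation lists no gene, rose 2.51-fold and 2.74-fold. Levels are given as log2 of the array intensity, with intensities under 16 set to 16, so that the lowest possible value is 4. At an unadjusted p under 0.05, 993 probe sets were higher (4.37%) and 468 were lower (2.06%), which is 6.42% in either direction against the 5% that this threshold alone would give. In bulk RNA, fewer cells of a type and less RNA per cell cannot be told apart.

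AT2G47950, for which the gene table gives no function, had levels of 7.10, 7.31 and 7.37 on the 3 untreated arrays and of 10.56, 10.61 and 10.25 on the 3 DEX arrays. The groups were 2.88 apart at their nearest arrays, while the arrays of each group lay within a much narrower band. The mean went from 7.26 ± 0.14 to 10.47 ± 0.20 (SD, n = 3 each), a log2 change of 3.21 with a standard error of 0.34 and an adjusted p of 0.00778 by limma. With CHX the same gene went from 6.90 ± 0.39 to 11.77 ± 0.82 (SD, n = 3 each), a 29.1-fold rise with an adjusted p of 4.31e-05. The difference between those responses did not pass the threshold (adjusted p of 0.397 for the interaction, limma), as it did for 1 probe set of all (0.0044%), 260716_at. AT2G47950 therefore rose with DEX in both comparisons, which have no array in common and share only the estimate of the spread.

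Probe set 257654_at had levels of 9.38, 9.31 and 9.61 without DEX and of 10.96, 10.58 and 10.74 with it. All 3 DEX arrays were above all 3 untreated arrays, by 0.97 at the nearest. The log2 change was 1.33 with a standard error of 0.15 and an adjusted p of 0.00778, and with CHX it was 1.26 with an adjusted p of 0.0022 (limma). CHX alone also raised 257654_at, by 2.31 on the log2 scale with an adjusted p of 1.13e-07, so its level with both drugs, 12.99 ± 0.05, was the highest of its 4 groups. Probe set 245173_at had levels of 7.99, 8.01 and 7.79 without DEX and of 9.39, 9.30 and 9.48 with it, again with no overlap. Its log2 change was 1.45 with a standard error of 0.19 and an adjusted p of 0.032, and with CHX it was 1.65 with an adjusted p of 0.00214 (limma). All 3 probe sets that rose with translation running thus also rose with it blocked. Of all probe sets, 58 rose with CHX present (0.255%). Among the arrays of that comparison, CHX replicate 1 had a geometric mean hybridisation control signal of 231, against 8733 to 15996 on the other arrays of the series. That array also enters the shared estimate of the spread. Without it, 2 probe sets were called in the comparison without CHX.

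**Figure D1:**
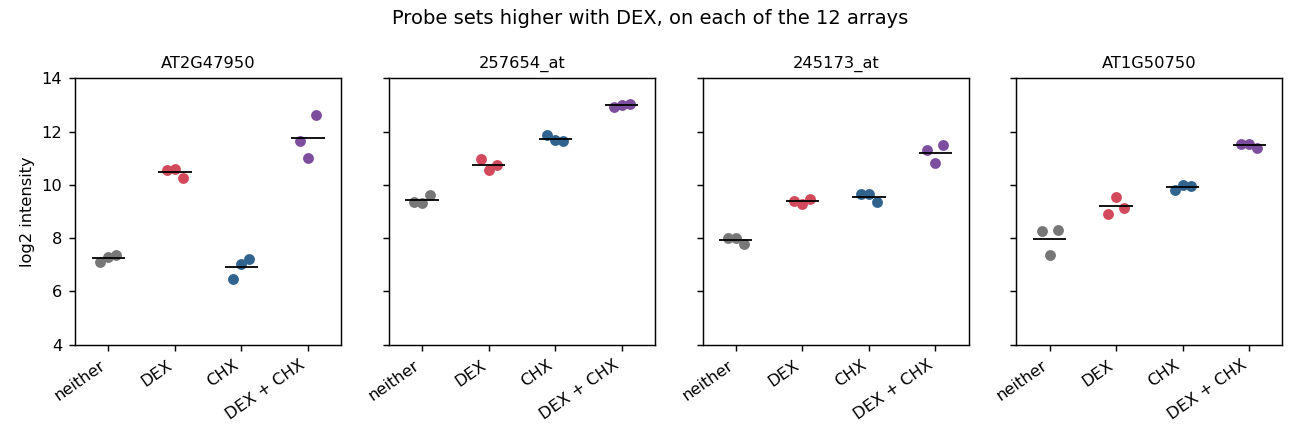
Log2 intensity of the 3 called probe sets and of AT1G50750, which was called only with CHX, on each of the 12 arrays, by group, with lines at the group means. In each panel the 3 DEX arrays sit above the 3 untreated arrays, and the 3 arrays with both drugs sit above the 3 with CHX alone.

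These 3 calls depended on single arrays. Without untreated replicate 1 or 2, or DEX replicate 1 or 3, the count of called probe sets was 0, and without DEX replicate 2 it was 1. The adjusted p of AT2G47950 was then between 0.0525 and 0.0763 (limma), while its log2 change stayed between 3.02 and 3.33 in all 23 alternatives. The call of 257654_at was lost in 8 of 23 alternatives and that of 245173_at in 16 of 23, with log2 changes from 1.13 to 1.47 and from 1.26 to 1.54.

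The arrays differed in brightness within each group. The authors' values have the same trimmed mean on every array, but the median intensity was 186, 126 and 185 on the untreated arrays and 169, 221 and 175 on the DEX arrays. The share of probe sets at the floor was 6.15%, 17.9% and 5.89% without DEX, and 7.5%, 2.84% and 8.71% with it. Untreated replicate 2 was thus the dimmest of the 6 and DEX replicate 2 the brightest, and their median difference was 0.44 on the log2 scale, against -0.07 between untreated replicate 3 and DEX replicate 1. The ratio of the 3′ to the 5′ ubiquitin control, a sign of RNA length, was also highest on untreated replicate 2, at 7.58, and lowest on DEX replicate 2, at 5.97. Other such controls ranked the 6 arrays differently: that of GAPDH was highest on untreated replicate 3, at 4.17, and that of actin on DEX replicate 3, at 12.01. Correlations of log2 values were 0.910 to 0.941 among untreated arrays, 0.919 to 0.937 among DEX arrays and 0.868 to 0.943 between them, so the groups as a whole did not separate.

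Across all probe sets the median log2 change was 0.10, with a median standard error of 0.45, and 59.4% of changes were above 0. Changes of at least 2-fold were found for 1997 probe sets upward (8.78%) and 195 downward (0.857%). This lean differed with the level of the probe sets. Among probe sets with a mean level of 4 to 6 the median change was 0.30, with 380 higher and 35 lower at an unadjusted p under 0.05, while among those from 10 to 12 it was -0.07, with 74 higher and 132 lower. Of the probe sets past an unadjusted p of 0.05, 68.0% were higher, but 54.2% after quantile normalization, 53.6% after centring each array on its median and 41.8% without replicate 2 of both groups. Without those 2 arrays, 651 probe sets were at least 2-fold higher and 1467 at least 2-fold lower, so the lean turned. Whether any of that lean comes from array brightness was not tested. AT2G47950, 257654_at and 245173_at were higher with DEX in every one of these settings.

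**Figure D2:**
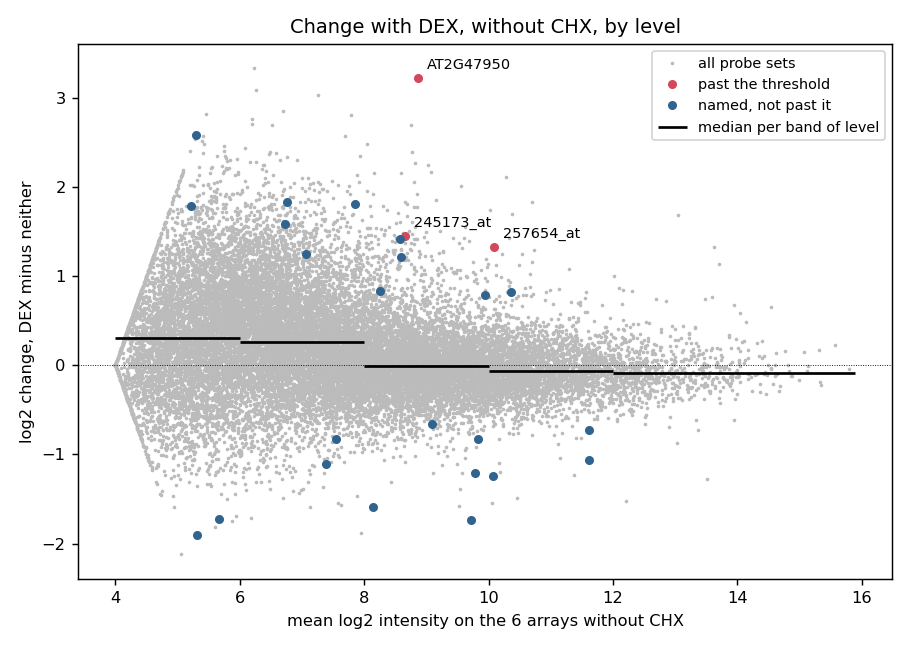
Log2 change with DEX against the mean log2 intensity on the 6 arrays without CHX, for all 22746 probe sets, with the called and named ones marked and lines at the median change of each band of level. The scatter is wide below a level of 8, where more points lie above 0 than below, and narrow above 10, and AT2G47950 lies at 3.21.

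Beyond the called probe sets, no gene passed the threshold, and the lowest adjusted p among the rest was 0.406 (limma). The 12 named genes with the lowest p and a higher level with DEX included AT2G47950 and 11 others, none of them called. AT5G35690 had levels of 5.72, 5.79 and 6.01 without DEX and of 7.40, 7.58 and 8.01 with it, a 3.55-fold difference. With CHX its means were 7.73 without DEX and 7.87 with it, a log2 change of 0.14 that was not called. AT1G50750 went from 8.26, 7.37 and 8.30 to 8.93, 9.54 and 9.13, a 2.33-fold difference, and with CHX it rose by 1.57 on the log2 scale with an adjusted p of 0.0176. AT5G35580 went from 9.62, 10.08 and 10.15 to 10.84, 10.53 and 10.96, a 1.77-fold difference, and with CHX it rose by 1.55 with an adjusted p of 0.00214. These genes have no function in the gene table used here. AT1G50750 and AT5G35580 were the only ones of the 11 that also rose with CHX.

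Among the rest of those 11, GT72B1 encodes a glucosyltransferase that joins glucose to small phenolic molecules. Its levels were 9.30, 9.70 and 9.67 without DEX and 10.37, 10.09 and 10.57 with it, a 1.73-fold difference. POLD3, a subunit of DNA polymerase delta, the replication enzyme, went from 6.62, 6.35 and 6.37 to 7.96, 7.82 and 7.28, a 2.37-fold difference. Both had non-overlapping groups and an adjusted p of 0.406 (limma), and with CHX their log2 changes were -0.22 and 0.67, neither called. AT3G51710 was at the floor on all 3 untreated arrays and at 6.35, 7.16 and 6.24 with DEX, which makes it at least 6.0-fold higher. With CHX its mean was 6.05 without DEX and 4.42 with it, a log2 change of -1.63 that was not called. AT5G44660 was at the floor on 2 of the 3 untreated arrays. The remaining members, AT2G15220, AT1G15830, AT4G35070 and AT3G10300, had log2 changes of 1.59, 1.41, 1.81 and 0.83. With CHX their changes were -0.21, -0.71, -0.56 and -0.42 in the same order, none of them called. The probe set of AT2G15220 is of the type that can match more than 1 transcript, so its signal may be shared. AT2G15220, GT72B1 and AT3G10300 had means of 10.04, 12.23 and 11.29 with CHX alone, above both groups without it, and none rose further with DEX there.

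The 12 named genes with the lowest p and a lower level with DEX were all uncalled, with adjusted p between 0.406 and 0.542 (limma). AT3G22240 had levels of 12.22, 12.11 and 12.13 without DEX and of 11.09, 10.82 and 11.36 with it, a 2.09-fold difference between groups that did not overlap. GSO1 encodes a receptor kinase that acts in the embryo's cuticle and in the root's endodermal barrier. Its levels were 9.92, 10.74 and 10.49 without DEX and 9.49, 9.08 and 8.94 with it, a 2.31-fold difference. With CHX the means of GSO1 were 9.19 without DEX and 9.05 with it. AT1G74460 had levels of 8.82, 9.09 and 8.89 against 7.27, 7.15 and 7.63, a 3.00-fold difference. It passed the threshold when the floor was set at 64 (adjusted p of 0.0176, limma). Its change was the same there, but its standard error was 0.16 in place of 0.39, and most of its values with CHX lie under 64. With that floor 14 probe sets were called higher (0.0615%) and 7 lower (0.0308%). EXLA3, an expansin-like protein of the family that loosens cell walls, went from 9.44, 9.16 and 9.68 to 8.78, 8.85 and 8.68, a 1.58-fold difference. CHX alone raised EXLA3 by 4.10 on the log2 scale, far more than DEX moved it. AT1G74840, AT4G24130, AT1G65500, AT4G27530, AT1G01490 and AT1G28600 had log2 changes between -1.73 and -0.72. AT1G70100 and AT2G14290 were at the floor on 2 and 1 of the DEX arrays. None of the 12 was called with CHX.

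**Figure D3:**
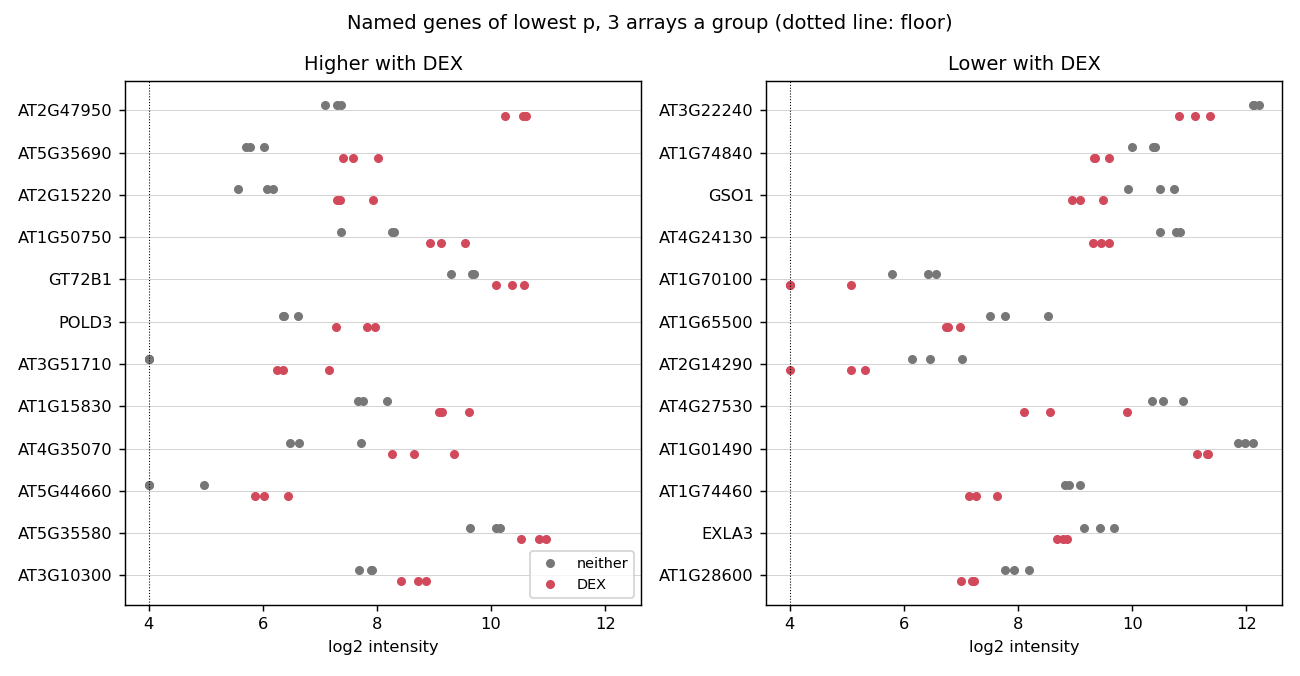
Log2 intensity on each array without CHX for the 12 named genes of lowest p with higher levels and the 12 with lower levels with DEX. The untreated and DEX points of each gene do not overlap, and AT3G51710 lies on the floor of 4 on all 3 untreated arrays.

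Among the listed genes that ABI3 is known for, none with a probe set named in the annotation passed the threshold with translation running. The called probe sets 257654_at and 245173_at have no listed gene there, so they could not be placed in any list. Of 22 loci listed for storage proteins and oil bodies, 9 had a probe set of their own in the annotation. None was called, and 7 of 9 had a change above 0, against 59.4% of all probe sets. The median log2 change was 0.27, beside 0.10 over all probe sets. OLEO3, an oleosin that coats oil bodies, had levels of 5.84, 5.43 and 7.08 without DEX and of 8.27, 8.35 and 7.83 with it. The groups did not overlap, and the log2 change was 2.03 with a standard error of 0.53 and an adjusted p of 0.549 (limma). With CHX the change of OLEO3 was -0.04, from 6.61 to 6.57. AT2G28490, placed in the list as a seed storage protein, went from 10.20, 10.38 and 10.09 to 10.92, 11.15 and 11.23, a log2 change of 0.88 with an adjusted p of 0.562. With CHX it rose by 1.73 with an adjusted p of 0.0101, from a lower level of 6.36. AT3G01570, listed as an oleosin, was lower with DEX, at 7.40, 7.36 and 7.70 against 8.49, 8.43 and 8.47. PAP85, a storage protein of the vicilin type, had a change of 0.27 with overlapping groups.

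LEA proteins protect cell contents during drying. Their list was made of 29 loci and of genes found by name. Of this list 21 genes were measured, and none was called. A change above 0 was found in 13 of the 21, against 59.4% of all probe sets. The median log2 change was 0.06, beside 0.10 for all probe sets. After quantile normalization these medians were 0.11 and -0.03, so their order depends on the scaling. Probe sets with a mean level above 12 had a median change of -0.09, and most of the measured LEA genes are bright. In 4 of the 21 the DEX arrays lay above all untreated arrays, against 6.87% of all probe sets, and in 0 of 21 below, against 4.69%. AT3G53040 had levels of 13.86, 14.45 and 14.35 without DEX and of 15.08, 14.67 and 14.85 with it, a 1.57-fold difference. LEA18 went from 13.94, 13.59 and 13.72 to 14.61, 14.08 and 14.33, a 1.5-fold difference, and the dehydrin named LEA in the table went from 13.51, 14 and 13.30 to 14.20, 14.21 and 14.43, a 1.60-fold difference. The adjusted p-values of these 3 genes lay between 0.670 and 0.757 (limma). The last of the 4, AT5G27980, was at or near the floor without DEX and at 6.10, 4.44 and 6.15 with it. Levels were already high before DEX, with 16 of the 21 above 10 on the untreated arrays.

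With CHX the same 21 LEA genes had a median log2 change of 1.06, and 9 of them rose, where 0.255% of all probe sets did. The list was chosen with earlier results of these data known, so this share is a description and not a test. The change with CHX was larger than without in 19 of 21, against 8370 of all 22746 probe sets. The same was so for 5 of the 9 storage and oil genes, of which 3 rose with CHX. AT3G53040, LEA18 and LEA changed by 2.14, 2.15 and 1.77 there. Their starting levels were lower with CHX: 12.22 in place of 14.22 for AT3G53040 and 10.61 in place of 13.75 for LEA18. AT3G22490, another LEA gene, rose by 2.80 with CHX and had a change of -0.74 without it, from 7.66, 8.04 and 7.05 to 7.61, 6.33 and 6.59. For no LEA gene did the difference between the responses pass the threshold, the lowest adjusted p of the interaction being 0.0974 (limma). Of the 9 LEA genes that rose with CHX, 3 had non-overlapping higher levels with DEX without it, beside 37.9% of all 58 probe sets that rose with CHX and 6.87% of all probe sets.

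**Figure D4:**
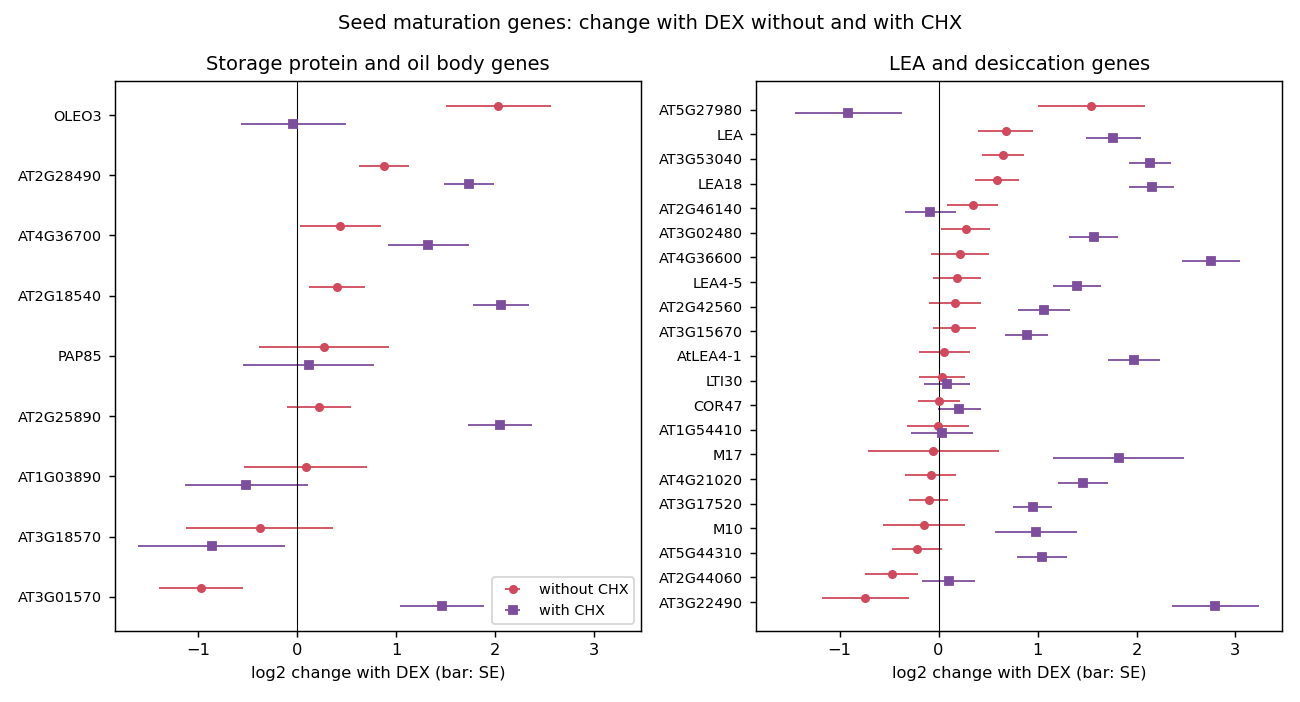
Log2 change with DEX without and with CHX for the measured storage and oil genes and LEA genes, with bars of 1 standard error. Most LEA genes lie near 0 without CHX and near 1 to 2 with it, while OLEO3 lies at 2.03 without CHX and at -0.04 with it.

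Of the transcription factors that direct seed maturation, 2 of 17 listed loci were measured. BZIP53, a bZIP protein that works with ABI3 on seed genes, had levels of 13.82, 13.80 and 13.78 without DEX and of 13.49, 13.58 and 13.76 with it. EEL, a bZIP protein of LEA gene control, had a change of 0.19 with overlapping groups. ABI3 itself has no probe set named in the annotation used here, so the level of the fusion's transcript is not reported. None of the 38 listed genes of abscisic acid synthesis and signalling had a probe set named there.

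Of genes that respond to abscisic acid or drying, 7 were measured, with a median change of 0.00. A change above 0 was found in 4 of the 7, against 59.4% of all probe sets. COR15A and COR15B, which encode chloroplast proteins that accumulate in the cold, had non-overlapping higher levels with DEX. COR15A went from 4.6 and 2 arrays at the floor to 6.16, 6.24 and 4.98, and COR15B from 4.5, 5.61 and 5.80 to 6.89, 6.56 and 6.63. Both are dim, with adjusted p of 0.747 and 0.697 (limma). PUB19, a ubiquitin ligase of drought signalling, had means of 9.94 and 9.92 without CHX, and rose with DEX in its presence.

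The lists of other root and stress programmes held no called gene either. The ER body is a compartment of beta-glucosidases used against attackers. Of its 7 measured genes 4 had a change above 0, against 59.4% of all probe sets. Its main enzyme, PYK10, was at 13.16, 13.55 and 13.19 without DEX and at 12.70, 12.97 and 13.05 with it, a log2 change of -0.39 with an adjusted p of 0.774 (limma). The 5 measured transcription factors of rapid stress responses, among them ORA47 and WRKY22, had changes from -0.25 to 0.39 and overlapping groups. The 7 early auxin genes had changes from -0.68 to 0.35. WES1, an enzyme that conjugates auxin, was at 12.15, 12.28 and 11.90 without DEX and at 12.66, 12.08 and 12.66 with it, so its groups overlapped.

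Few markers of root cell types had a probe set named in the annotation. Of 9 root hair and epidermis markers 2 were measured, the expansins EXPA7 and EXPA18, with changes of 0.52 and 0.84 and overlapping groups. The cortex marker AT1G62500 was at 5.32 on 1 untreated array and at the floor on the other 2 and at 6.61, 6.30 and 7.03 with it, a log2 change of 2.21 with a standard error of 0.64 and an adjusted p of 0.562 (limma). It was the 1 marker measured of 7 for cortex and endodermis, and none of the 10 stele or 6 root tip markers was measured, so the cell makeup of the groups could not be compared. The leaf gene RCA, for the activase of Rubisco, had means of 8.34 and 8.43.

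The larger gene families are given as medians, which move with the scaling. None of the 33 lists with measured genes held a called gene. The 43 UDP-glycosyltransferases, which attach sugars to hormones and other small molecules, had a median change of 0.23, with 8 of the 43 non-overlapping higher, against 6.87% of all probe sets, and 1 lower, against 4.69%. UGT71B8 was at the floor on 2 untreated arrays, at 5.95 on the third, at 6.13, 7.34 and 7.35 with it, and UGT85A7 at 7.26, 4.87 and 8.10 against 8.89, 9.03 and 8.34. The 30 expansins and other wall-loosening genes had a median of 0.19, and EXPA9 among them was at 6.88, 4 (the floor) and 7.13 against 7.48, 8.32 and 7.51. The lowest value of UGT85A7 and of EXPA9 came from untreated replicate 2, the dimmest array. The 42 MADS-box factors had a median of 0.28, and 31 were above 0, against 59.4% of all probe sets. Among 69 genes encoded in the plastid the median was 0.17, and psbA, for a core protein of photosystem II, was at 11.87, 10.79 and 11.81 against 12.11, 12.25 and 12.12. These medians stand beside 0.10 for all probe sets, and with each array centred on its median they were 0.03, -0.01, 0.08 and -0.03 in the same order, beside -0.10 for all probe sets. The plastid median was -0.11 without untreated replicate 2.

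The 58 probe sets that rose with DEX when translation was blocked were then read on the arrays without CHX. Those arrays entered that comparison only through the shared estimate of the spread. To that extent they took part in the choice of the 58. Of these, 22 (37.9%) had all 3 DEX arrays above all 3 untreated arrays, against 6.87% of all probe sets, and 3 (5.17%) had them all below, against 4.69%. Without replicate 2 of both groups the shares were 50% against 14.7% upward and 6.90% against 21.8% downward. Of the 58, 19 (32.8%) were higher at an unadjusted p under 0.05, against 4.37% of all. The sizes were small: the median log2 change was 0.22 without CHX and 1.66 with it, and 4 of the 58 reached 2-fold without CHX.

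AT3G54940 was at 11.56, 11.94 and 11.50 without DEX and at 12.85, 12.38 and 12.37 with it, a log2 change of 0.87 with a standard error of 0.28 and an adjusted p of 0.660 (limma). AT1G54870 went from 10.98, 11.24 and 11.29 to 11.97, 11.77 and 12.04, a change of 0.76. Both had non-overlapping groups and neither was called without CHX, while their changes with CHX were 3.45 and 2.21. The levels before DEX differed between the settings. Over the 58, the median level was 11.44 without either drug and 11.61 with DEX, but 10.03 with CHX and 11.64 with both, and 45 of the 58 were lower with CHX than untreated, as were 11884 of all 22746. The arrays with CHX alone took part in the choice of the 58, so a low level there is partly selected for. None was at the floor on any untreated array.

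**Figure D5:**
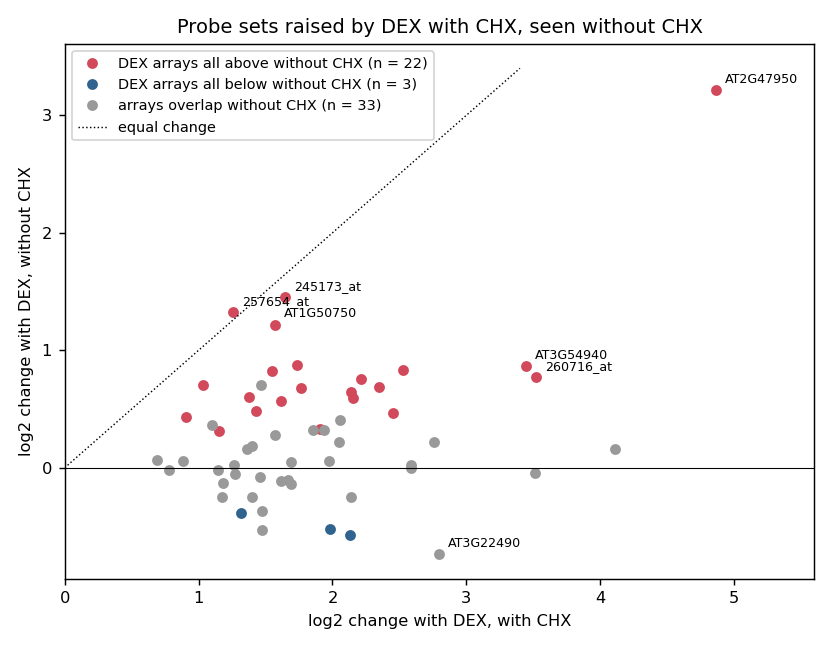
Log2 change with DEX without CHX against the change with CHX, for the 58 probe sets that rose with DEX in the presence of CHX. Points on the dotted line changed equally in both, and most points lie below it, at a median of 0.22 without CHX and 1.66 with it.

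The probe sets of lowest p without CHX were also read on the arrays with CHX. Of the 100 with the lowest p, 73 were higher and 27 lower with DEX. All 100 had groups that did not overlap, against 6.87% of all probe sets higher and 4.69% lower. A choice by low p makes this nearly certain beforehand. Of the 73, 32 (43.8%) also had a change above 0 with CHX, where 37.2% of all probe sets higher without CHX did. With CHX 6 of the 73 were called, where 0.255% of all probe sets were called higher and 0.0176% lower. Of the 27, 17 (63.0%) were also lower with CHX, against 57.1% of all lower ones, and none was called. Many of the 73 were dim: 37 had at least 1 untreated array at the floor and 16 had all 3 there. The 27 were brighter, with a median untreated level of 10.25.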

How the data were processed

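Total RNA from root protoplasts was extracted with a QIAGEN kit and labelled with a NuGEN kit, per the labels' protocols, and hybridised to Affymetrix arrays. The values used are the intensities the authors deposited in 1 table of 22810 probe sets. The software and genome build behind them are not given in the sources used here. Every array has the same mean of 500 after trimming 2% from each end. Control probe sets (64) were left out, intensities under 16 were set to 16, and log2 values were fitted with limma 3.58.1 (R 4.3.3, lmFit and eBayes with a variance trend) over all 12 arrays in 4 groups. Contrasts were tested at a Benjamini-Hochberg adjusted p of 0.05 over 22746 probe sets.

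Precision is set by the 3 arrays a group. On simulated data for the comparison without CHX (22746 probe sets), 16 of 100 2-fold and 53 of 100 4-fold changes were called. The changed probe sets were all rises. They were drawn only from those with an untreated mean more than 2 above the floor on the log2 scale. Of the 22546 unchanged probe sets there, 3 were called. How far these counts hold for dim probe sets, or for the measured arrays, which differed in brightness, was not tested. The platform annotation gave 1 gene for 13513 probe sets, several for 503 and none for 8730, and symbols came from the RefSeq TAIR10.1 gene table. Named were each called probe set, the 12 genes of lowest p in each direction (1 gene in the annotation, higher group at least 2 above the floor on the log2 scale), and up to 4 genes of lowest p in each main list and 2 in each other list. A few further genes were picked with their values in view: AT2G47960, AT1G54860, 260716_at, AT3G54940, AT1G54870, PAP85, PUB19, AT3G22490, and those called with another floor. The members and lists were chosen with earlier results of these data known. There were 13 lists by locus and 34 keyword searches of gene names, of which 3 extended a list by locus and 2 were dropped because they matched clone names or other words. With the genes encoded in the plastid this made 43 lists, and 10 of them had no measured gene. No promoter sequence was used, so motifs were not searched.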

Additional observations from a re-analysis of the deposited data

Results flagged for a closer look

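260716_at, a probe set without a listed gene, was the 1 of 22746 probe sets (0.0044%) whose response to DEX differed with CHX at an adjusted p under 0.05. Its levels were 13.39, 13.09 and 13.15 without DEX and 13.97, 13.87 and 14.11 with it, a log2 change of 0.77. With CHX its mean went from 7.15 to 10.67, a change of 3.52. The difference between these changes was 2.75, with an adjusted p of 0.015 (limma). CHX alone thus left 260716_at far below its untreated level, and DEX with CHX did not bring it back to that level.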

How the results depend on the processing

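The count of 3 called probe sets was 5 after quantile normalization, 1 after centring each array on its median, 21 with a floor of 64, 1 in a fit of only the 6 arrays without CHX, 0 without a variance trend and 5 unmoderated. Leaving out 1 array gave 0 to 3, and leaving out replicate 2 of both groups, chosen after seeing the data, gave 0. The cause of these shifts was not tested. AT2G47950, 257654_at and 245173_at lost their calls in 8, 8 and 16 of 23 alternatives. Neither these nor the 12 genes of lowest p in each direction changed sign in the alternatives run. Of the list members named, EEL, PUB19, WRKY22, RCA and EXPA7 changed sign in 2, 4, 1, 5 and 3 of theirs. AT5G35690 passed with a floor of 64 (adjusted p of 0.0272) and unmoderated (0.0348), and AT1G74460 with a floor of 64 (limma). Centring shifted the median of all probe sets from 0.10 to -0.10, and those of seed regulators to -0.20, LEA genes to -0.14 and abscisic acid responses to -0.19. Leaving out arrays moved some medians further: plastid genes ranged from -0.27 without both replicates 2 to 0.44 without untreated replicate 1, early auxin genes reached -0.35, wall genes 0.43 without DEX replicate 1, and abscisic acid responses 0.23 without untreated replicate 1. Same-numbered replicates gave no sign of pairing, with correlations of deviations of -0.128, -0.394 and -0.147, and no array correlated best with its own number. The replicate block gave 2 calls. Promoter motifs were not run. Dim probe sets had a median standard error of 0.63, against 0.22 at levels of 10 to 12, so 2-fold changes of dim genes were often not detectable.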

Other observations

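Of the 36 named genes that rose with DEX in the presence of CHX, 2 pairs are next to each other among protein-coding genes of the RefSeq TAIR10.1 table. One pair is AT2G47950, called in both settings, with AT2G47960, whose levels without CHX were 7.91, 7.78 and 7.17 on the untreated arrays and 8.0, 8.48 and 8.88 on the DEX arrays. These groups did not overlap, and the log2 change of AT2G47960 was 0.84 with a standard error of 0.40 and an adjusted p of 0.787 (limma). The other pair is AT1G54870 with AT1G54860, which went from 10.37, 10.57 and 10.55 to 11.35, 10.83 and 10.72 without CHX. Both members of each pair were higher with DEX without CHX, as were 66.7% of the 36 named genes and 61.5% of all named genes. How many neighbouring pairs a random draw of genes would give was not tested. The pairs were picked with their values in view.

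With the floor at 64 in place of 16, which removes much of the scatter of dim probe sets by setting their values equal, 14 probe sets were higher (0.0615%) and 7 lower (0.0308%). The lower ones included AT5G47530, with a log2 change of -0.96, AT5G57060, with -0.80, and 245612_at, with -1.88. The higher ones included AT5G06270, with 1.25, and the pathogenesis-related PR-1-LIKE, with 0.85. AT1G35513 was called with 0.27, but its change was 1.74 with the floor of 16. Its 3 untreated values all lie under 64 and so were set to the same level. The same holds for AT5G06270 on every untreated array and every array with CHX, and for AT5G47530 and 245612_at on every array with CHX. Groups set to a single level add no spread to the shared estimate, so part of the smaller spread comes from the floor itself.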
